A study of Mus musculus with 6 samples.

Results

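Oxidative phosphorylation is the step of energy metabolism in which the inner mitochondrial membrane turns the energy of electrons taken from nutrients into ATP. Complex I (NADH dehydrogenase) and complex II (succinate dehydrogenase) take up the electrons, and complex III (cytochrome c reductase) and complex IV (cytochrome c oxidase, COX) pass them on to oxygen. Complexes I, III and IV pump protons across the membrane, and complex V (ATP synthase) makes ATP as the protons flow back. Most subunits are encoded in the nucleus and a few in mitochondrial DNA (mtDNA), and every complex except complex II is built from both. The beating cardiomyocyte is among the cells richest in these complexes. The genes described here are the protein-coding genes whose symbols begin with Nduf and a letter a, b, c, s or v, Uqcr, Cox4 to Cox8, Atp5 or mt-, together with Sdha, Sdhb, Sdhc and Sdhd. By this rule on names alone, 104 of 26012 genes in the table were members. They were 81 nuclear subunits (36 of complex I, 4 of complex II, 8 of complex III, 18 of complex IV and 15 of complex V), 13 subunits encoded in mtDNA (7 of complex I, 1 of complex III, 3 of complex IV and 2 of complex V) and 10 assembly or associated factors. Ndufa4 and Ndufa4l2 were counted with complex IV, and Cox7a2l, Atp5s, Atp5sl and the 7 Ndufaf genes with the assembly or associated factors. A further 6 names matched but were not annotated as protein coding and were left out.

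The RNA came from fresh ventricular tissue of 6 C57BL/6 mice, all male, 8 weeks of age and all with myocardial infarction (MI) made by tying off the left anterior descending coronary artery. At surgery 3 hearts received control mimic and 3 received miR-19a/19b mimic, given in a lipid-based reagent as injections of 10 μg per heart in all into the ventricular wall around the infarct, and all were collected 4 days after MI. A mimic is a short double-stranded RNA made to work like the mature miRNA. No uninjured heart entered the comparison, so levels are those of the infarcted ventricle in both groups. The libraries were made from polyadenylated RNA and do not measure mature miR-19, so the dose that reached each heart was not measured here. Values are normalized counts, that is, reads on a gene after division by the scaling factor of that library. Between 19398196 and 23645308 reads fell on genes in each heart. Where values are given for every heart, they stand in the order of replicates 1, 2 and 3.

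The members were deeply sequenced. The filter of a mean of at least 1 kept 102 of them. Of these, 84 had a mean of at least 1000, 15 lay between 100 and 1000, and only Ndufb2, Cox6b2 and mt-Nd4l had a mean under 100. Cox7b2 and mt-Atp8 fell under the filter and were not tested. Cox7b2, a testis isoform of a complex IV subunit, had 0, 0 and 0.934 in control mimic hearts and 1.08, 0 and 0 in miR-19a/19b mimic hearts, and mt-Atp8, a complex V subunit, had 0, 0 and 2.8 in control mimic hearts and 0, 2.06 and 0 in miR-19a/19b mimic hearts. The gene mt-Atp8 shares 21.1% of its exon bases with mt-Atp6, and how reads on both genes were counted is not given in the sources used here. Its low count does not show that its RNA was absent. Reads on protein-coding genes of mtDNA took 4.87%, 4.08% and 5.74% of all counted reads in control mimic hearts 1, 2 and 3 and 6.69%, 6.73% and 3.10% in miR-19a/19b mimic hearts 1, 2 and 3.

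The miR-19a/19b mimic hearts did not stand together, which bears on every result that follows. Heart 3 of the miR-19a/19b mimic group differed from hearts 1 and 2 far more than those differed from each other. The chi-square of the recovered reads per degree of freedom was 135 and 121 against heart 3 and 11.2 between hearts 1 and 2. It lay between 10.3 and 26.6 among control mimic hearts. A list of 14 skeletal muscle markers summed to 3543 normalized counts in miR-19a/19b mimic heart 1 and to no more than 76.1 in any other heart. Comparisons are therefore given with all 6 hearts and without miR-19a/19b mimic heart 3. The fit without it sets hearts 1 and 2 against the 3 control mimic hearts. It keeps heart 1 with its skeletal muscle markers. Heart 3 was left out after its values were seen, so the p-values of that fit are given as description.

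The mature miR-19a-3p and miR-19b-3p that the mimics stand for are shown because few members carry a match to them. Both come from chromosome 14 (GRCm38.p6, plus strand, chr14:115044048-115044070 and chr14:115044358-115044380), and miR-19b-3p has another copy on chromosome X (minus strand, chrX:52741991-52742013). The sequences are those of RefSeq, and the capitals mark the seed, bases 2 to 8, by which a miRNA pairs with its targets.
miR-19a-3p: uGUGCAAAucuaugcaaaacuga
miR-19b-3p: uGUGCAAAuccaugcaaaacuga
A match to this shared seed, TTTGCAC with or without a following A or TTGCACA, was searched on the sense strand of the longest 3' UTR of GENCODE M21. Of 90 members with an annotated 3' UTR, 5 (5.56%) held a match, and of all 15821 genes with one, 2907 (18.4%) did. The median 3' UTR had 219 bases among members and 1103 among all genes. A match is a description of the letters and not a site of action. The matches of all 5 members are printed with up to 10 bases on either side and the match in capitals, namely Cox8b (muscle isoform of COX8), Ndufb2 and Ndufc1 (accessory subunits of complex I), and Ndufaf4 and Ndufaf7 (assembly factors of complex I).
Cox8b: agTTGCACAtccctgagag
Ndufb2: tggggtggagTTGCACAcctctaagtt
Ndufc1: taagccttccTTGCACAgtgtctttgg
Ndufaf4: atccttccatTTTGCACAttagcccact
Ndufaf7: caggtgtaatTTTGCACAagtaaggact
Ndufaf4 and Ndufaf7 held the 8-base match and the others the 7-base TTGCACA. None of these 5 genes passed the test between the groups (limma, adjusted p = 0.9996 as the smallest over all members). Their log2 fold changes were 0.33 for Cox8b, -0.16 for Ndufb2, 0.15 for Ndufc1, -0.01 for Ndufaf4 and -0.01 for Ndufaf7. The values of these genes thus lay on both sides of 0.

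To ask whether the genes of the respiratory chain differed between infarcted hearts given miR-19a/19b mimic and those given control mimic, all 21126 genes with a mean of at least 1 were compared with limma on log2(normalized count + 1), with p-values adjusted over all of them by the Benjamini and Hochberg method. On this scale 92 of 102 members had a log2 fold change above 0 and 10 below, with a median of 0.16, against a median of 0.0041 and 50.8% above 0 over all genes tested. At an adjusted p-value under 0.05, 0 members were lower and 0 higher in limma, and so were 0.0% and 0.0% of all genes tested. At an unadjusted p-value under 0.05, again 0 members were lower and 0 higher, where 2.63% of all genes tested were lower and 1.39% higher. The quasi-likelihood test of edgeR on the recovered reads called 0 members at an adjusted p-value under 0.05 (0.0% of all genes tested), and the Wald test of DESeq2 called 0 (0.205% of all genes tested). The groups overlapped in level for every one of the 102 members. Among all genes tested, the miR-19a/19b mimic hearts lay wholly lower for 5.3% and wholly higher for 3.9%. The median SE of a member's log2 fold change was 0.23, larger than the median fold change itself.

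The miR-19a/19b mimic hearts lay on opposite sides of the control mimic hearts. For 81 of the 102 members, miR-19a/19b mimic hearts 1 and 2 were each above all 3 control mimic hearts and miR-19a/19b mimic heart 3 was below all 3, an arrangement that 8.55% of all genes tested and 13.0% of those with a mean of at least 100 showed. It was noticed in these data and is given as a description. Relative to the mean of the control mimic hearts, the median member stood at 1.34-fold in miR-19a/19b mimic heart 1, 1.41-fold in heart 2 and 0.736-fold in heart 3. Heart 2 was the highest of all 6 for 69 members and heart 1 for 27, and heart 3 was the lowest for 86, whereas heart 3 was the lowest for 23.2% of all genes tested. The median coefficient of variation of a member was 32.1% among miR-19a/19b mimic hearts and 12.2% among control mimic hearts. Over the 11609 genes with a mean of at least 100, these medians were 11.5% and 7.96%. In bulk tissue, fewer cells of a type and less RNA per cell cannot be told apart.

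**Figure D1:**
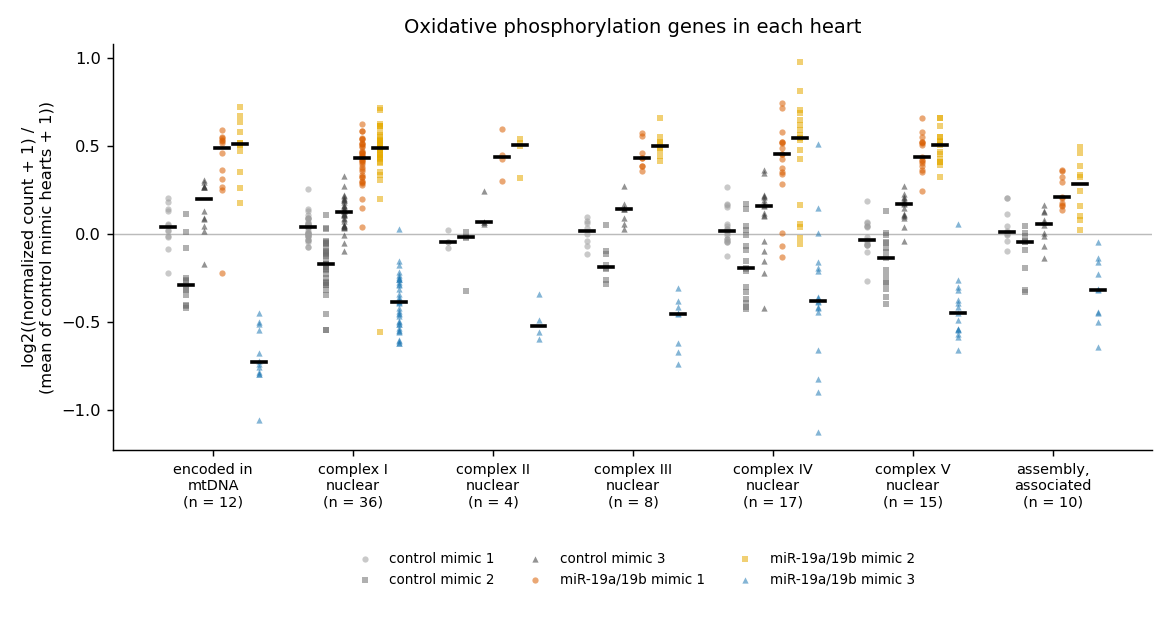
Level of each of the 102 members in each heart, as log2 of the normalized count + 1 over the mean of the control mimic hearts + 1 (y axis), for mtDNA subunits, the nuclear subunits of each complex and the assembly or associated factors (x axis); each point is a gene in 1 heart and each black bar the median over the genes. The medians of miR-19a/19b mimic hearts 1 and 2 lie above and those of heart 3 below the control mimic hearts in every class.

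Without miR-19a/19b mimic heart 3, 99 of the 102 members had a log2 fold change above 0, with a median of 0.47, while the median over all genes tested was 0.0024. At an adjusted p-value under 0.05, 29 members were higher in this limma fit, where 1.71% of all genes tested were higher, and 0 members were lower, where 0.729% of all genes tested were lower. Of the 29, 28 were nuclear subunits (13 of complex I, 2 of complex II, 4 of complex III, 5 of complex IV and 4 of complex V) and mt-Co3 was the other. With miR-19a/19b mimic heart 2 left out in its place, 50 members were above 0 and 52 below, with a median of -0.003, and with heart 1 left out 61 were above 0 and 41 below, with a median of 0.025. The direction over these genes thus depended on which miR-19a/19b mimic hearts entered the comparison.

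**Figure D2:**
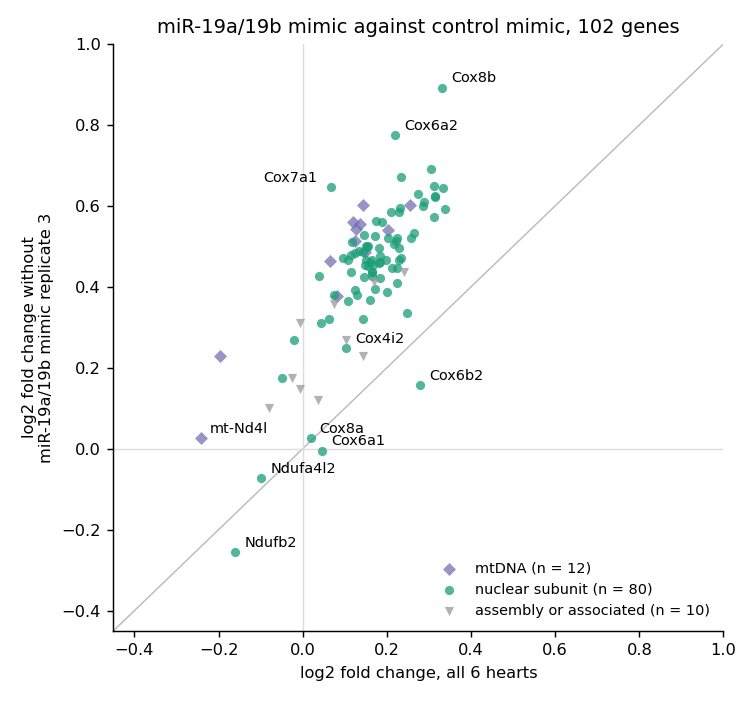
Log2 fold change of each of the 102 members between miR-19a/19b mimic and control mimic hearts with all 6 hearts (x axis) and without miR-19a/19b mimic heart 3 (y axis), with a grey diagonal at equal values. Most points lie near 0.16 on the x axis and near 0.47 on the y axis, the muscle isoforms Cox8b and Cox6a2 lie highest, and Cox6a1 and Cox8a lie near 0 on both axes.

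The subunits encoded in mtDNA made up 74.0% of the members' normalized counts. Summed over the 13 genes, they came to 1043510, 843074 and 1268230 in the control mimic hearts and 1541090, 1502410 and 621073 in miR-19a/19b mimic hearts. Hearts 1 and 2 of the miR-19a/19b mimic group thus held more, and heart 3 less, than any control mimic heart. Per kb of gene length, mt-Co1, which encodes the catalytic subunit of complex IV, had the highest mean level of all members with 316439 normalized counts per kb. It was followed by mt-Cytb, the mtDNA subunit of complex III, with 176967 and by mt-Nd1, a membrane-arm subunit of complex I, with 136514 normalized counts per kb. The normalized count of mt-Co1 was 441717, 359685 and 537539 in control mimic hearts and 670901, 666619 and 256931 in miR-19a/19b mimic hearts, and its log2 fold change was 0.14 ± 0.58 (SE, n = 3 per group). The level of mt-Cytb was 187444, 151004 and 227265 in control mimic hearts and 269591, 261549 and 117850 in miR-19a/19b mimic hearts, with a log2 fold change of 0.12 ± 0.44 (SE, n = 3 per group). Both genes were at their lowest in miR-19a/19b mimic heart 3, and for both the groups overlapped.

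In complex I, the mtDNA subunits are the core of the membrane arm, through which protons are pumped. The level of mt-Nd1 was 121837, 94897 and 144844 in control mimic hearts and 176644, 172587 and 73056 in miR-19a/19b mimic hearts, with a log2 fold change of 0.14 ± 0.41 (SE, n = 3 per group). For mt-Nd2, mt-Nd4 and mt-Nd5 the log2 fold changes were 0.12, 0.13 and 0.06. The gene mt-Nd6 lies on the opposite strand of mtDNA from the other 12 and had the lowest level per kb of the 7 tested mtDNA genes with no full-length copy on chromosome 1, 16717, 21100.4 and 20726 in control mimic hearts and 23486, 22026 and 9394 in miR-19a/19b mimic hearts. Its log2 fold change was -0.20 ± 0.32 (SE, n = 3 per group). Counting by strand is not stated in the sources used here, so part of the mt-Nd6 count may come from the other strand. In mt-Nd6, control mimic heart 2 was the highest of the controls, where in mt-Nd1 it was the lowest, and miR-19a/19b mimic heart 3 was again the lowest of all.

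The remaining mtDNA genes were counted at levels far below these. Per kb, mt-Co2, mt-Co3, mt-Atp6, mt-Nd3 and mt-Nd4l had mean levels of 2722, 2010.3, 1625, 490.2 and 266 normalized counts per kb, where mt-Nd6, the lowest of the others, had 36432. Each of these 5 genes had a copy on chromosome 1 that matched over at least 98.99% of its length with 99.71% to 100% identity, while the copies found for mt-Co1, mt-Nd2, mt-Nd4 and mt-Nd5 were shorter or less alike. Among the shorter ones, Gm28439 matched 63.6% of mt-Nd4 at 100% identity and Gm29216 matched 31.3% of mt-Co1 at 99.79%. The counts of mt-Nd4 and mt-Co1 are therefore uncertain over those stretches. The 5 copies are annotated as unprocessed pseudogenes, and they held counts of the same size. For mt-Co2, a copper-binding subunit of complex IV, the counts were 1955, 1436 and 1778 in control mimic hearts and 2140.0, 2682 and 1182 in miR-19a/19b mimic hearts. For its copy Gm28661 they were 1880.0, 1417 and 1684 in control mimic hearts and 2087, 2418 and 1145 in miR-19a/19b mimic hearts. Over the 6 hearts the ratio of mt-Co2 to Gm28661 lay between 1.01 and 1.11, and that of mt-Co3 to Gm28437 between 0.866 and 0.925. It lay between 0.584 and 0.616 for mt-Atp6 and Gm10925, between 0.890 and 0.964 for mt-Nd3 and Gm28438, and between 0.778 and 1.65 for the low counts of mt-Nd4l and Gm10222. Except for mt-Nd4l, a gene and its copy thus kept nearly the same ratio in every heart.

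The pair mt-Nd3 and Gm28438 shows how little there is to tell such a gene from its copy. Over 345 compared bases they differed at 1, T3C, counted from 1 at the start of mt-Nd3. The first 28 bases of each are printed from the GENCODE M21 transcripts (GRCm38, chrM:9459-9486 on the plus strand and chr1:24613092-24613119 on the minus strand), with the differing base in capitals.
mt-Nd3: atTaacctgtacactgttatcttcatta
Gm28438: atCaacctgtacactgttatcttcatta
The counts of mt-Nd3 were 179, 117 and 170.0 in control mimic hearts and 200.1, 247 and 109.8 in miR-19a/19b mimic hearts, and those of Gm28438 were 191, 124 and 186 in control mimic hearts and 225, 257 and 120.2 in miR-19a/19b mimic hearts. How reads that align to both places were counted is not given in the sources used here, so the values of mt-Co2, mt-Co3, mt-Atp6, mt-Nd3 and mt-Nd4l are uncertain, mt-Co3 among the 29 genes above included. Their summed count was 4853, 3812 and 4577 in the control mimic hearts and 5587, 6833 and 3103 in miR-19a/19b mimic hearts. Here too hearts 1 and 2 of the miR-19a/19b mimic group held more, and heart 3 less, than any control mimic heart.

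**Figure D3:**
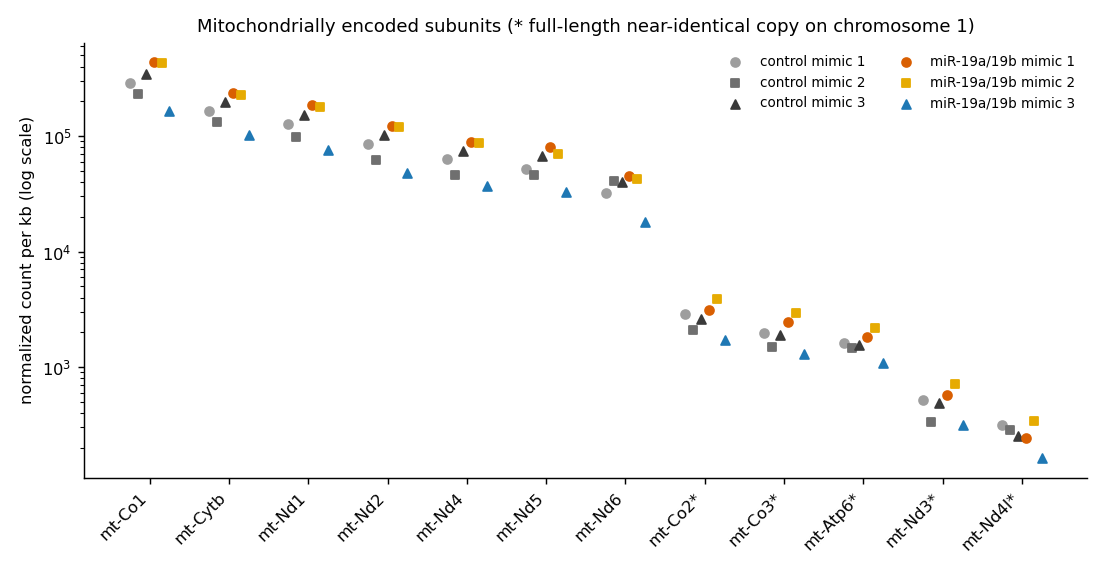
Normalized count per kb (y axis, log scale) of the 12 tested mtDNA subunits (x axis, ordered by mean level) in each heart. An asterisk marks the 5 genes with a full-length near-identical copy on chromosome 1, which lie far below the 7 others, and miR-19a/19b mimic heart 3 is lowest for every gene.

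To compare the genomes, the summed reads of mtDNA subunits were divided by those of nuclear subunits in each heart. The nuclear subunits summed to 363761, 317418 and 401339 in the control mimic hearts and 504076, 512552 and 260141 in miR-19a/19b mimic hearts. The ratio of mtDNA to nuclear subunits was 2.87, 2.66 and 3.16 in control mimic hearts and 3.06, 2.93 and 2.39 in miR-19a/19b mimic hearts. It was lowest in miR-19a/19b mimic heart 3, whose mtDNA sum was 0.591 of the control mean where its nuclear sum was 0.721, and the other 5 hearts lay between 2.66 and 3.16. On the log2 scale the ratio was 1.53 ± 0.13 (SD, n = 3) in control mimic hearts and 1.47 ± 0.19 (SD, n = 3) in miR-19a/19b mimic hearts. The difference of -0.057 was smaller than the SD in either group, and the groups overlapped. Over genes, the median log2 fold change was 0.17 for the 80 nuclear subunits tested and 0.12 for the 12 mtDNA subunits tested, and without miR-19a/19b mimic heart 3 it was 0.47 and 0.53.

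In all 5 complexes the sum of the nuclear subunits was above all controls in miR-19a/19b mimic hearts 1 and 2 and below all controls in heart 3. Relative to the control mean, the summed nuclear subunits of complexes I, II, III, IV and V stood at 1.37, 1.42, 1.39, 1.35 and 1.43 in miR-19a/19b mimic heart 1. In heart 2 they stood at 1.43, 1.41, 1.41, 1.46 and 1.41, and in heart 3 at 0.746, 0.696, 0.69, 0.769 and 0.698. Within a heart the complexes were thus close to each other. The ratio of complex V to complex I reads, for example, was 1.69, 1.73 and 1.78 in control mimic hearts and 1.81, 1.71 and 1.62 in miR-19a/19b mimic hearts. The ratio of complex IV to complex I reads lay between 0.682 and 0.714. The median log2 fold changes of the nuclear subunits were 0.17 for complex I, 0.16 for complex II, 0.16 for complex III, 0.20 for complex IV and 0.18 for complex V, and without miR-19a/19b mimic heart 3 they were 0.46, 0.47, 0.47, 0.51 and 0.49. Within hearts, the log2 ratios of complexes II, III, IV and V to complex I differed between the groups by -0.023, -0.037, 0.017 and -0.017, where the SD among miR-19a/19b mimic hearts (n = 3) was 0.074, 0.069, 0.034 and 0.078, and the groups overlapped for each ratio.

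Among the subunits that carry the catalysis, every gene of a list of 16 (15 members and Cyc1, cytochrome c1 of complex III) had hearts 1 and 2 of the miR-19a/19b mimic group above and heart 3 below all control mimic hearts. In complex I, Ndufv1, which binds NADH and flavin, had 5879.9, 5646 and 6547 in control mimic hearts and 8607, 8728 and 3923 in miR-19a/19b mimic hearts. Its log2 fold change was 0.15 ± 0.28 (SE, n = 3 per group) with all hearts and 0.53 ± 0.10 (SE, limma, adjusted p = 0.0272) without miR-19a/19b mimic heart 3. Of the other core subunits of its hydrophilic arm, most of which bind iron-sulfur clusters, Ndufs1, Ndufs3, Ndufs7, Ndufs8 and Ndufv2 had log2 fold changes between 0.11 (Ndufs3) and 0.27 (Ndufs7) with all hearts. Without that heart, Ndufs1, Ndufs3, Ndufs7 and Ndufv2 were higher (limma, adjusted p = 0.035, 0.038, 0.0255 and 0.0355), and Ndufs8 did not pass (adjusted p = 0.0618). Each of these genes was highest in hearts 1 and 2 and lowest in heart 3 of the miR-19a/19b mimic group.

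In complex II, the flavoprotein gene Sdha had 12290.3, 9645 and 14312 in control mimic hearts and 18259, 17529.6 and 8203 in miR-19a/19b mimic hearts. The iron-sulfur gene Sdhb had 4851, 4935 and 5249 in control mimic hearts and 6844, 7161 and 3320.3 in miR-19a/19b mimic hearts. The log2 fold change was 0.21 ± 0.30 (SE, n = 3 per group) for Sdha, the highest of its complex, 0.12 for Sdhb and 0.04 for the membrane anchor Sdhc, the lowest. Sdhb was among the genes that passed without miR-19a/19b mimic heart 3, at 0.48 ± 0.09 (SE, limma, adjusted p = 0.0277). The median coefficient of variation over the 4 genes of complex II was 4.64% in the control mimic hearts and 32.9% in the miR-19a/19b mimic hearts. Sdha, the most abundant of the 4, varied more among control mimic hearts, with a mean of 12083 ± 2341 (SD, n = 3). Summed over the 4 genes, the control mimic hearts came to 24007 ± 2659 (SD, n = 3).

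In complex III, the Rieske iron-sulfur protein gene Uqcrfs1 had the lowest log2 fold change, 0.04 ± 0.28 (SE, n = 3 per group), and the small subunit Uqcrq the highest, 0.32 ± 0.25 (SE, n = 3 per group). Uqcrq had 5405, 4151 and 5605 in control mimic hearts and 7439, 7987 and 4078 in miR-19a/19b mimic hearts. Uqcrfs1 had 5224, 5868 and 5880.1 in control mimic hearts and 7634, 7547 and 3392 in miR-19a/19b mimic hearts. In both genes heart 3 of the miR-19a/19b mimic group was the lowest of all hearts, by a small margin in Uqcrq and a wide one in Uqcrfs1. The core proteins Uqcrc1 and Uqcrc2 had log2 fold changes of 0.12 and 0.12, and 0.51 and 0.48 without that heart. Uqcrc2 shares 19.8% of its exon bases with Pdzd9 on the opposite strand, and counting by strand is not stated in the sources used here.

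In complex V, the genes of the catalytic head, Atp5a1 and Atp5b, were the highest nuclear members per length, with means of 12234 and 12259.8 normalized counts per kb. Atp5b, which holds most of each catalytic site, had 49821, 39989 and 55202 in control mimic hearts and 69521, 64934 and 32201 in miR-19a/19b mimic hearts, with a log2 fold change of 0.13 ± 0.32 (SE, n = 3 per group). The stalk gene Atp5c1 was 0.59 ± 0.11 (SE, limma, adjusted p = 0.025) on the log2 scale without miR-19a/19b mimic heart 3 and 0.23 with all hearts. The extremes of the complex were Atp5f1 at 0.07 and Atp5j at 0.29, both peripheral stalk subunits, and 12.7% of the exon bases of Atp5j overlap Gabpa on the opposite strand. Stretches of at least 95% identity over 150 bases or more lie in another annotated gene for 39 of the 104 members, Atp5c1, Atp5f1 and Atp5g1 among them, so that part of their reads may be shared. The 39 include members whose only match is a gene that overlaps them in place, such as Emc8 for Cox4i1 and Pdzd9 for Uqcrc2. Of the lowest and highest in complex I among nuclear subunits with a mean of at least 100, Ndufb6 was at -0.05 (39.0% of its exon bases overlap Smim27 on the opposite strand) and Ndufs6 at 0.33.

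The 3 genes Atp5g1, Atp5g2 and Atp5g3 encode the same mature c subunit of the proton-driven ring with different import sequences, and the order of hearts was not the same in all of them. Atp5g1 had 10410.3, 8191 and 11216 in control mimic hearts and 15684, 15714 and 6303 in miR-19a/19b mimic hearts. Atp5g3 had 7972, 7554 and 9421 in control mimic hearts and 11949, 11504 and 5709.6 in miR-19a/19b mimic hearts. Atp5g2 had 2499, 1711 and 2377 in control mimic hearts and 2596, 2878 and 2282 in miR-19a/19b mimic hearts. Atp5g1 and Atp5g3 thus ran with the other subunits, whereas in Atp5g2 the miR-19a/19b mimic heart 3 lay inside the range of the control mimic hearts and the lowest value was in control mimic heart 2. The log2 fold changes were 0.23 ± 0.33 (SE, n = 3 per group) for Atp5g1, 0.25 for Atp5g2 and 0.16 for Atp5g3. Without miR-19a/19b mimic heart 3 that of Atp5g1 was 0.67 ± 0.14 (SE, limma, adjusted p = 0.0326), and that of Atp5g2 was 0.34 ± 0.15 (SE, limma, adjusted p = 0.313).

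In complex IV, isoforms of the same subunit differed in how widely they swung between hearts. Adult heart and skeletal muscle use muscle isoforms of 3 small COX subunits, Cox6a2, Cox7a1 and Cox8b, in place of or beside the ubiquitous Cox6a1, Cox7a2 and Cox8a found in most tissues. The muscle isoforms Cox6a2 (chr7:128205435-128206387), Cox7a1 (chr7:30184144-30186078) and Cox8b (chr7:140898943-140900446) all lie on chromosome 7, and Cox6a1 (chr5:115345642-115348981), Cox7a2 (chr9:79755241-79759853) and Cox8a (chr19:7215158-7217616) on chromosomes 5, 9 and 19 (GRCm38).

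Cox6a2 had 6283, 5637 and 7468 in control mimic hearts and 10611, 11361 and 3465 in miR-19a/19b mimic hearts. Its ubiquitous partner Cox6a1 had 6857, 6847 and 6226 in control mimic hearts and 6342, 6900.3 and 7353 in miR-19a/19b mimic hearts. In Cox6a2 the hearts of the miR-19a/19b mimic group bracketed the controls widely, while in Cox6a1 heart 3 was the highest of all 6 and the whole range was narrow. Cox7a1 had 2113, 1623 and 2798 in control mimic hearts and 3121, 3543 and 999 in miR-19a/19b mimic hearts. Cox7a2 had 2436, 1656 and 2436 in control mimic hearts and 3122, 3337 and 1905 in miR-19a/19b mimic hearts. Cox7a2 was the ubiquitous isoform that ran with the other subunits, although control mimic heart 2 and not miR-19a/19b mimic heart 3 was its lowest. Cox8b had 1949.6, 1491 and 2534 in control mimic hearts and 3332, 3913 and 1125 in miR-19a/19b mimic hearts. Cox8a had 2549.8, 2563 and 2447 in control mimic hearts and 2535, 2593 and 2528 in miR-19a/19b mimic hearts. The levels of Cox8a were nearly the same in all 6 hearts.

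With all hearts the log2 fold changes were 0.22 ± 0.40 (SE, n = 3 per group) for Cox6a2, 0.07 ± 0.43 for Cox7a1 and 0.33 ± 0.42 for Cox8b. For the ubiquitous isoforms they were 0.05 ± 0.12 for Cox6a1, 0.34 ± 0.23 for Cox7a2 and 0.02 ± 0.09 for Cox8a. None of the 6 passed. Without miR-19a/19b mimic heart 3, Cox6a2 was higher by 0.77 ± 0.13 (SE, limma, adjusted p = 0.0162) and Cox8b by 0.89 ± 0.18 (SE, limma, adjusted p = 0.0288). Cox7a1 was at 0.65 ± 0.18 (SE, limma, adjusted p = 0.0889) and did not pass. Cox6a1 and Cox8a were at -0.0046 and 0.03. The summed reads of muscle over ubiquitous isoforms gave ratios of 0.874, 0.791 and 1.15 in control mimic hearts and 1.42, 1.47 and 0.474 in miR-19a/19b mimic hearts. On the log2 scale this ratio was -0.11 ± 0.28 (SD, n = 3) in control mimic hearts and -0.0053 ± 0.93 (SD, n = 3) in miR-19a/19b mimic hearts, so that the difference of 0.10 was far smaller than the SD of the miR-19a/19b mimic hearts. Skeletal muscle also uses these isoforms. The sum of its markers was 3543 in miR-19a/19b mimic heart 1, and heart 2, with a sum of 44.3, held more of each of the 3 muscle isoforms than heart 1. The part of skeletal muscle RNA in these values was not tested. Cox6a2 shares 10.3% of its exon bases with Itgad on the opposite strand.

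**Figure D4:**
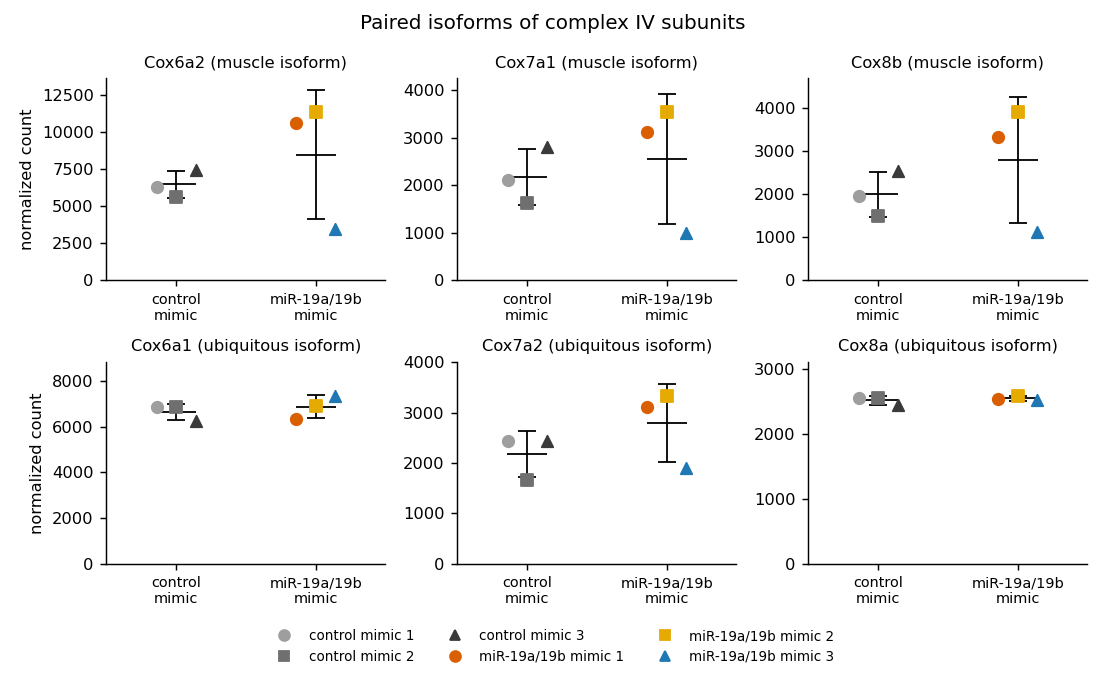
Normalized counts (y axis, from 0) of the muscle isoforms Cox6a2, Cox7a1 and Cox8b (top) and their ubiquitous partners Cox6a1, Cox7a2 and Cox8a (bottom) in the 3 control mimic and 3 miR-19a/19b mimic hearts, with a point per heart, a horizontal line at the group mean and error bars of the SD. The miR-19a/19b mimic hearts spread widely in the top row, and in Cox6a1 and Cox8a all 6 hearts lie close together.

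The promoters of these isoforms other than Cox6a2 are printed to set them beside the differing spread of their levels across hearts. Each runs from 250 bases before to 50 after the RefSeq transcript start (GRCm38.p6): Cox6a1 chr5:115348909-115349208 (minus strand), Cox7a2 chr9:79759804-79760103 (minus strand), Cox8a chr19:7217567-7217866 (minus strand), Cox7a1 chr7:30183921-30184220 (plus strand) and Cox8b chr7:140900397-140900696 (minus strand). The capitals mark short motifs of factors known to act on respiratory genes, searched on both strands: the NRF1 core TGCGCA, the ETS core CCGGAAG of GABP, the YY1 core AAGATGG and the half-site AAGGTCA of estrogen-related receptors.
Cox6a1: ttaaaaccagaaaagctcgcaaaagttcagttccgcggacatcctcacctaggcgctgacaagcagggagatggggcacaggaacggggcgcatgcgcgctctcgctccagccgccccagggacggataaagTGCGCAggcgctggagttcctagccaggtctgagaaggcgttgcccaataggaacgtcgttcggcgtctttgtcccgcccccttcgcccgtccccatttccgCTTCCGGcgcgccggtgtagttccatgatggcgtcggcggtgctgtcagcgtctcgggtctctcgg
Cox7a2: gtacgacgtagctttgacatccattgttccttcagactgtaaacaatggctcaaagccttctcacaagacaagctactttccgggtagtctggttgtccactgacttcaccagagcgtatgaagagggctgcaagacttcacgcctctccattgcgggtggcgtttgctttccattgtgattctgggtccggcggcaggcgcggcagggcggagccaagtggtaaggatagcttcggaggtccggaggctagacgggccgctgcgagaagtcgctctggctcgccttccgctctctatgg
Cox8a: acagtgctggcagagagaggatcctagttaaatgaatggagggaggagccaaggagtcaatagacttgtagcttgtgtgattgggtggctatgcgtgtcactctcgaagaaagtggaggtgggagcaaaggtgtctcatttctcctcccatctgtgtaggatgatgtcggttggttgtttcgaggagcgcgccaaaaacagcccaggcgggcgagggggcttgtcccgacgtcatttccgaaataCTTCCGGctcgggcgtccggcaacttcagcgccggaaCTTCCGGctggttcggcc
Cox7a1: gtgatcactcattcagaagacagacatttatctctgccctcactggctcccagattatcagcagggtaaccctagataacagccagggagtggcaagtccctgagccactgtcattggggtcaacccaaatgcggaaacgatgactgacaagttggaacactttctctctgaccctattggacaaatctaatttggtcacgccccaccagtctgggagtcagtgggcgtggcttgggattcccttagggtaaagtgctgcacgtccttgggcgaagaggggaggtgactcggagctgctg
Cox8b: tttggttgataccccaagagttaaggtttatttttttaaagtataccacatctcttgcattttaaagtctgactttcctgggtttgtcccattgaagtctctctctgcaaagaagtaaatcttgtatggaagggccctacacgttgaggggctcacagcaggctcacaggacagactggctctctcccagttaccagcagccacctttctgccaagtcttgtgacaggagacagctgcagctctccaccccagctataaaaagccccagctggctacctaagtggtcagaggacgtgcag
The promoter of Cox6a1 held the NRF1 and ETS cores and that of Cox8a the ETS core, and those of the ubiquitous Cox7a2 and the muscle isoforms Cox7a1 and Cox8b held none of the 4 motifs within this window. The RefSeq table held promoters for 76 of 91 nuclear members. Of these 76, 19 held the NRF1 core, 22.4% the ETS core, 15.8% the YY1 core and 10.5% the estrogen-related receptor half-site. Over the promoters of all 27025 genes, 8.79% held the NRF1 core, 9.93% the ETS core, 7.28% the YY1 core and 5.38% the half-site. These are counts of letters in a window and say nothing of binding in these hearts.

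The other isoforms of complex IV were low. Cox4i2, the isoform of Cox4i1 known from lung and from low oxygen, had 153, 152 and 101 in control mimic hearts and 165, 152 and 117 in miR-19a/19b mimic hearts. Cox4i1 had 9087, 7839.6 and 10237 in control mimic hearts and 12690.4, 13130.5 and 6673 in miR-19a/19b mimic hearts. Cox4i1 followed the order of most subunits, with a log2 fold change of 0.20 ± 0.25 (SE, n = 3 per group). Cox6b2, a testis isoform, had 81.8, 63.4 and 57.9 in control mimic hearts and 86.1, 65 and 96.8 in miR-19a/19b mimic hearts, and was highest in miR-19a/19b mimic heart 3, while Cox6b1 ran with the other subunits at a log2 fold change of 0.12. Ndufa4l2, induced by low oxygen in many cells, had 676, 751 and 611 in control mimic hearts and 621, 668 and 609 in miR-19a/19b mimic hearts. Ndufa4 had 4694, 3585 and 5239 in control mimic hearts and 6461, 7045 and 3508 in miR-19a/19b mimic hearts. The range of Ndufa4l2 was narrow and its log2 fold change was -0.10 ± 0.11 (SE, n = 3 per group), the lowest of complex IV, where that of Cox7a2 was the highest.

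Of the 102 members, 21 did not have miR-19a/19b mimic hearts 1 and 2 above and heart 3 below all controls. In Ndufa12, Ndufa3, Ndufa5, Ndufb4, Ndufs6, Cox7a2, Atp5g2, Atp5j, Atp5l, Atp5sl and Ndufaf2, hearts 1 and 2 were above all controls and heart 3 was above control mimic heart 2 only, as in Ndufs6 with 2139.8, 1601 and 2374 in control mimic hearts and 2972, 3326 and 1644 in miR-19a/19b mimic hearts. The others were Cox6a1, Cox8a, Cox4i2, Cox6b2, Ndufa4l2, Ndufb2, mt-Nd4l, Atp5s, Ndufaf5 and Ndufaf7. Ndufb2 had only 66.3, 72.2 and 62.6 in control mimic hearts and 68.9, 45.4 and 68.3 in miR-19a/19b mimic hearts, and another annotated gene, Gm42420, shares exon bases with it on the same strand. For mt-Nd4l the values were 92.8, 84.9 and 74.7 in control mimic hearts and 72.1, 101 and 48.4 in miR-19a/19b mimic hearts. Both rest on low counts.

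The 10 assembly or associated factors spread less between hearts than the subunits. Their sum was 6436, 6091 and 6536 in the control mimic hearts and 7349.6, 7387 and 5343 in miR-19a/19b mimic hearts, or 1.16, 1.16 and 0.841 of the control mean in miR-19a/19b mimic hearts 1, 2 and 3. Of the 10, 6 had a log2 fold change above 0 and 4 below, with a median of 0.054, 5 had hearts 1 and 2 above and heart 3 below the controls, and 0 passed without heart 3. Cox7a2l, counted here with the associated factors, had 2906, 2881 and 2919 in control mimic hearts and 3191, 3119.7 and 2640.0 in miR-19a/19b mimic hearts. Assembly factors with other names formed a list that had 34 genes tested, 22 above 0 and 12 below with a median of 0.052, and 0 passed in limma with all hearts, also at an unadjusted p-value under 0.05, while 1 passed at an adjusted p-value under 0.05 without heart 3. Among all genes tested, 1.71% were higher and 0.729% lower in the fit without heart 3. The arrangement of the subunits held for 13.0% of those with a mean of at least 100.

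Many genes that feed or accompany the chain showed the same arrangement of hearts. A list of 19 genes covered the tricarboxylic acid cycle, which supplies the electrons. It includes Pdha1, Pdhb, Dlat, Pdhx and Pcx, which act in the steps from pyruvate into the cycle. Of the 19, 18 had a log2 fold change above 0 and 1, Pcx, below, with a median of 0.16. All but Pcx had miR-19a/19b mimic hearts 1 and 2 above and heart 3 below the controls. The sum of the 19 stood at 1.49, 1.42 and 0.651 of the control mean. Of 18 electron carriers and other chain genes with other names, 15 were above 0 and 3 below, with a median of 0.11, and 13 had that arrangement. Among all genes tested with a mean of at least 100, 13.0% had it. Cycs, which encodes cytochrome c, had 7902, 5164 and 8564 in control mimic hearts and 10588, 11364 and 5296 in miR-19a/19b mimic hearts, the lowest value being in control mimic heart 2. The muscle adenine nucleotide carrier Slc25a4 had 26664, 24449.7 and 31662 in control mimic hearts and 43114, 44336 and 17559 in miR-19a/19b mimic hearts. Its ubiquitous counterpart Slc25a5 had 5989, 6191 and 5987 in control mimic hearts and 6127, 6702 and 5775 in miR-19a/19b mimic hearts. The spread between hearts was wide in Slc25a4 and narrow in Slc25a5. With all hearts, 0 genes of these lists passed in limma, at an adjusted or an unadjusted p-value under 0.05. Without miR-19a/19b mimic heart 3, 9 of the 19 and 6 of the 18 passed at an adjusted p-value under 0.05. Among all genes tested, 1.71% were higher and 0.729% lower in that fit. Calls in that fit were thus not limited to the subunits.

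Regulators of mitochondrial biogenesis were mixed, with 15 of 22 above 0 and 7 below, a median of 0.045, and 9 with the arrangement of the subunits. Ppargc1a, the coactivator PGC-1α that drives respiratory genes, had 1039, 741 and 1121 in control mimic hearts and 3133, 2979.5 and 644 in miR-19a/19b mimic hearts. Its log2 fold change was 0.93 ± 0.53 (SE, n = 3 per group) with all hearts, where it did not pass, and 1.68 without miR-19a/19b mimic heart 3. Esrra, a nuclear receptor that works with it, had 2723, 2198 and 2637 in control mimic hearts and 3353, 3386 and 1895 in miR-19a/19b mimic hearts and showed the arrangement of the subunits. Nrf1, a transcription factor of respiratory genes, had 555, 536 and 504 in control mimic hearts and 541, 474 and 624 in miR-19a/19b mimic hearts. Gabpa, a subunit of another such factor, had 868, 993 and 939.8 in control mimic hearts and 952, 952 and 903 in miR-19a/19b mimic hearts. In miR-19a/19b mimic heart 3, Nrf1 was thus at its highest and Gabpa within the range of the controls. Of 29 genes of mitochondrial gene expression, 20 were above 0 and 9 below, with a median of 0.040, and 14 had the arrangement of the subunits. That arrangement held for 13.0% of all genes tested with a mean of at least 100. Without heart 3, 4 of the 22 regulators passed at an adjusted p-value under 0.05 in limma. Among all genes tested, 1.71% were higher and 0.729% lower in that fit. Tfam, which packs mtDNA and helps transcribe it, had 605, 579.7 and 585 in control mimic hearts and 655, 634 and 504 in miR-19a/19b mimic hearts. It showed the arrangement, over a range narrower than that of mt-Co1.

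Markers of cardiomyocytes showed the arrangement of the subunits. The sum of the 20 cardiomyocyte markers was 865301, 735054 and 956519 in the control mimic hearts and 1312180, 1195750 and 446449 in miR-19a/19b mimic hearts, which is 1.54, 1.4 and 0.524 of the control mean in the miR-19a/19b mimic hearts. Of the 20, 18 had hearts 1 and 2 above and heart 3 below the controls, and 6 passed in limma at an adjusted p-value under 0.05 without heart 3. Among all genes tested, 1.71% were higher and 0.729% lower in that fit. The arrangement held for 13.0% of those with a mean of at least 100. Divided by the sum of the 20 markers, the nuclear subunits came to 0.42, 0.432 and 0.42 in control mimic hearts and 0.384, 0.429 and 0.583 in miR-19a/19b mimic hearts. Over the other 5 hearts the ratio was nearly level, between 0.384 and 0.432, and in miR-19a/19b mimic heart 3 it was higher. The ratio of mtDNA subunits to cardiomyocyte markers lay between 1.15 and 1.39, also highest in that heart. The part of the cardiomyocyte share in the values of the subunits was not tested, and 0 of the 20 markers were at 0 in all hearts.

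Markers of other cells in the infarct did not follow the subunits. The 10 fibroblast markers summed to 0.962, 0.764 and 1.25 of the control mean in miR-19a/19b mimic hearts 1, 2 and 3, and the macrophage markers to 0.769, 0.888 and 1.17. The 9 neutrophil markers summed to 0.439, 0.764 and 1.36, and the 7 erythrocyte markers to 0.895, 1.04 and 0.53. The sums of the leukocyte and fibroblast markers were thus high in the heart in which the subunits were low, but many single markers were not. Hearts 1 and 2 below and heart 3 above all controls was the order of 0 of 10 fibroblast markers tested. It was the order of 3 of 12 macrophage and 2 of 9 neutrophil markers tested. The share of all genes tested with this order was not counted, so these counts have no background to be read against. Of 10 endothelial and 10 smooth muscle and pericyte markers, 0 and 2 had the arrangement of the subunits, and the sums were 0.969 and 0.974 of the control mean in heart 3. That arrangement held for 13.0% of all genes tested with a mean of at least 100. With all hearts, 0 markers passed at an adjusted p-value under 0.05 in limma, and at an unadjusted p-value under 0.05 there were 1 cardiomyocyte, 1 macrophage, 1 neutrophil, 1 smooth muscle and 2 erythrocyte markers lower and 1 skeletal muscle marker higher. Over all genes tested, 2.63% were lower and 1.39% higher at that unadjusted threshold. The part of these markers in the values of the subunits was not tested.

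**Figure D5:**
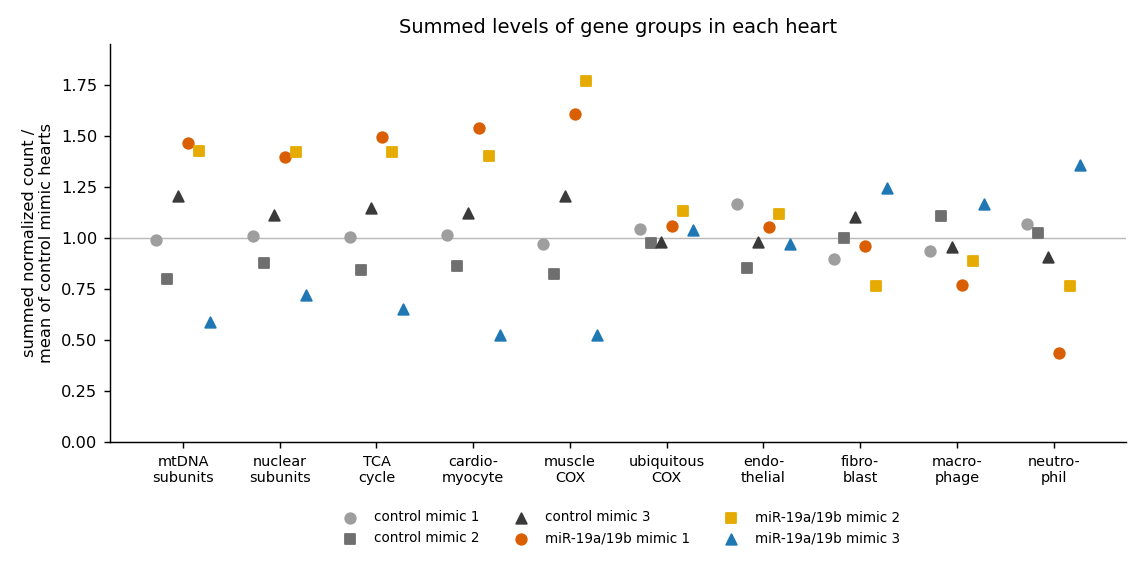
Summed normalized counts of gene groups in each heart, relative to the mean of the 3 control mimic hearts (y axis, from 0), for the subunits of both genomes, the tricarboxylic acid (TCA) cycle list with its pyruvate enzymes, complex IV (COX) isoforms and cell type markers (x axis). In miR-19a/19b mimic heart 3 the subunits, TCA cycle, cardiomyocyte markers and muscle isoforms lie below, and the fibroblast, macrophage and neutrophil markers above, every control mimic heart, while ubiquitous isoforms stay near 1.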

How the data were processed

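RNA-seq libraries from 3 control mimic and 3 miR-19a/19b mimic hearts, grouped by the labels and stated in the methods to be biological replicates, were used. The authors aligned read pairs with STAR 2.5.1b and counted genes with HTSeq 0.6.0, and the deposited signal is the count of a gene after division by its library's size factor, as DESeq2 1.10.1 (submitters' processing notes) gives. Those notes name mm9, but gene coordinates were compared with GENCODE M21 (GRCm38), in which 25884 of 26012 genes were found, none on another chromosome and 82.7% with identical ends. Within 0.1 read, 100% of values were whole multiples of 1 read, and 19398196 to 23645308 reads per heart were recovered. Handling of multi-mapped reads and of strand is not given in the sources used here. The deposited table of the authors' own comparison (fold changes and p-values) was not used.

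Genes with a mean of at least 1 (21126) were tested with limma 3.58.1 (R 4.3.3) on log2(normalized count + 1), which understates fold changes of low genes, with Benjamini and Hochberg adjustment. The test was tested on simulated data, where it recovered 97% of 200 genes changed 2-fold among 20670 and called 4 others. In that simulation all genes had the same dispersion, only genes with a mean of at least 100 were changed, and no heart stood apart. The 97% is therefore no measure of what could be detected for the members in these hearts. Alternatives were edgeR 4.0.16 and DESeq2 1.42.0 on the recovered reads, scaling to nuclear reads, pseudocounts of 0.1 and 5, a mean of at least 10, no filter, the replicate number as a block, and each heart left out. Near-identical stretches in other annotated genes were searched with BLAST 2.17.0 (at least 95% identity over 150 bases), and 39 of 104 members had one. Genes that overlap a member in place were not removed from this count. Genes named were all those encoded in mtDNA, isoform pairs and catalytic subunits, the lowest and highest fold change per complex among nuclear subunits with a mean of at least 100, and those under the filter. A gene that this rule names is not reported here. The remaining named genes, among them those with other orders of hearts, were chosen after their values were seen. The members and lists were chosen with earlier results of these data known.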

Additional observations from a re-analysis of the deposited data

How the results depend on the processing

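Leaving out 1 heart at a time gave between 0 and 29 members past an adjusted p-value under 0.05 in limma. It gave between 0 and 85 higher at an unadjusted p-value under 0.05. Every count above 0 came from the fit without miR-19a/19b mimic heart 3. For all genes tested, the share past the unadjusted threshold was not counted in that fit. The 85 thus have no background to be read against. In the fits that leave out 1 heart, the log2 fold changes of the 49 named and tested genes lay between -0.50 and 0.89. They changed sign for 1, 7 and 2 genes without control mimic hearts 1, 2 and 3 and for 22, 25 and 4 genes without miR-19a/19b mimic hearts 1, 2 and 3. The median of nuclear subunits lay between 0.015 and 0.47 and that of mtDNA subunits between -0.087 and 0.53. The log2 ratio of mtDNA to nuclear subunits differed by -0.13 to 0.052 and that of muscle to ubiquitous isoforms by -0.17 to 0.64. Under edgeR, DESeq2, scaling to nuclear reads, both pseudocounts, both filters and the replicate block, none of the 49 genes changed sign and 0 members passed, adjusted or unadjusted. The median of nuclear subunits was 0.22 in edgeR, 0.23 in DESeq2 and 0.16 with scaling to nuclear reads. Replicate numbers did not pair the hearts (correlations of same-numbered deviations of -0.0085, -0.021 and -0.11), and with the replicate block the median stayed at 0.17 and 0 genes passed. With genes weighted equally on the log2 scale, the ratios differed by -0.10 and 0.072. With 3 hearts per group and the spread among miR-19a/19b mimic hearts, differences of the size of these medians were not detectable, and the low counts of Ndufb2, Cox6b2 and mt-Nd4l limit those genes.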
